A study of Mus musculus with 20 samples.

Results

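Messenger RNAs of T and natural killer (NK) cells and of the chemokines that attract them were followed in the livers of wild-type (WT) mice after knockdown of HuR, the RNA-binding protein encoded by Elavl1. The set was chosen by exact gene name and holds 10 of the 55335 genes in the table: Cd3e and Cd3g, which encode chains of the CD3 complex, Cd8a and Cd8b1, which encode the CD8 co-receptor, the cytotoxic granule genes Nkg7, Gzma and Gzmb, and the chemokine genes Ccl5, Cxcl9 and Cxcl10. Whole-liver total RNA was sequenced from 6 WT mice given an adenovirus carrying an shRNA against mouse HuR (HuR KD) and from 6 WT mice given a LacZ control virus. All 12 were male C57BL/6 mice, purchased at 8 weeks of age and acclimatized for 10 to 14 days. Every mouse, control mice included, received 2000000000 pfu of adenovirus intravenously, and the liver was removed on day 7 after a 4 h fast. The human counterparts of the genes were read in humanized mice, which are TK-NOG mice, a highly immune-deficient strain with a thymidine kinase transgene under a mouse albumin promoter, engrafted with human hepatocytes. These mice received a virus against human HuR (4 mice) or the LacZ virus (4 mice) at the same dose and time. The comparison asked how HuR knockdown changes liver gene expression, here for genes that mark the lymphocytes of the tissue rather than its hepatocytes, together with the CXC chemokines that liver cells also make.

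T cells recognise antigen through a receptor whose signal passes through the CD3 chains, and cytotoxic T cells use CD8 to engage MHC class I molecules. Cytotoxic T cells and NK cells kill infected cells by releasing granules that contain granzymes, the serine proteases encoded by Gzma and Gzmb. CXCL9 and CXCL10 are induced by interferon in many cell types, among them hepatocytes and macrophages, and attract activated T and NK cells through the receptor CXCR3. CCL5 is made by cytotoxic lymphocytes themselves and attracts further leukocytes. HuR binds U-rich and AU-rich sequences in mRNA and often raises mRNA stability.

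HuR mRNA was checked first. Elavl1 (ENSMUSG00000040028.10, chromosome 8, 4285382 to 4325413, minus strand, genome build GRCm38) ranged from 8.58 to 10.7 TPM, a level scaled to gene length and library size, in the LacZ livers, with a median of 9.49. It ranged from 3.72 to 5.62 TPM in the HuR KD livers, with a median of 4.97. Each HuR KD liver lay below each LacZ liver, and the mean was 51.7% of the LacZ mean. On the log2(TPM + 1) scale used for all fold changes below, which understates the change of low genes, the fold change was -0.83 (SE 0.09, limma adjusted p = 0.00105).

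Sequencing depth differed between the libraries. Of the 12 libraries, 10 held 29319416 to 43994385 reads on annotated genes, whereas HuR KD replicate 6 held 12764002 and LacZ replicate 2 held 1401822. In LacZ replicate 2 the values rested on 35 reads for Cxcl9, 10 for Cxcl10, 9 for Ccl5, 6 for Cd8a, 4 for Gzmb, 2 for Gzma, 1 each for Cd3g, Cd8b1 and Nkg7, and 0 for Cd3e. In HuR KD replicate 6, Gzma rested on 1 read and Nkg7 on 2 reads. Fold changes that these libraries move by a large factor are given with and without them. Intervals from reads cover counting error only.

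The promoters of the 2 granzyme and 2 CXC chemokine genes are shown first, because Gzma and Gzmb were the genes with the clearest difference and Cxcl9 and Cxcl10 were the most closely matched pair. Each is the RefSeq window on GRCm38.p6 from 250 bases before to 50 bases after the annotated start, written 5′ to 3′ on the gene's strand. Capitals mark matches, on either strand, to any of 5 short motifs: an interferon response element core (GAAANNGAA), an interferon gamma activated site (TTCNNNGAA), an NF-kB core (GGANTTTCC), a RUNX site (TGTGGT) and a T-box element (TCACACC). The Gzma window lies at chr13:113100932-113101231 and the Gzmb window at chr14:56262285-56262584, both on the minus strand. The whole Gzmb window lies upstream of the GENCODE gene span given below (56258838 to 56262260). Its last 50 bases follow the RefSeq start but are outside that span. The Cxcl9 window lies at chr5:92328030-92328329 and the Cxcl10 window at chr5:92348840-92349139, also both on the minus strand.
Gzma: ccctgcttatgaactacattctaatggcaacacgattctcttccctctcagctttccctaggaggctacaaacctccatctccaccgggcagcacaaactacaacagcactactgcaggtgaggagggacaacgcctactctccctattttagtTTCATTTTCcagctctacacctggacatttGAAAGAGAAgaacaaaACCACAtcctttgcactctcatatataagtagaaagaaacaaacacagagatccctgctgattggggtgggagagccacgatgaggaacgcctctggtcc
Gzmb: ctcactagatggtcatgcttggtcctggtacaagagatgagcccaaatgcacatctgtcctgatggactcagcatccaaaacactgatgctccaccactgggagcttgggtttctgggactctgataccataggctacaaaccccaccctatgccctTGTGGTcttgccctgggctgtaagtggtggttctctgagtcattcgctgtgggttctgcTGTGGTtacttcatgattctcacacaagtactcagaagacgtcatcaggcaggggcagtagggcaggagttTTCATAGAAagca
Cxcl9: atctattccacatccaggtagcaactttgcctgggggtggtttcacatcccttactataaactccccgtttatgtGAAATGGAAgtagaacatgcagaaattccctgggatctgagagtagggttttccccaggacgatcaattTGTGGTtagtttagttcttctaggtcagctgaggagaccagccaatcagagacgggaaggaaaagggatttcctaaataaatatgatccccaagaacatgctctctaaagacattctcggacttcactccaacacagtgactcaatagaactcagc
Cxcl10: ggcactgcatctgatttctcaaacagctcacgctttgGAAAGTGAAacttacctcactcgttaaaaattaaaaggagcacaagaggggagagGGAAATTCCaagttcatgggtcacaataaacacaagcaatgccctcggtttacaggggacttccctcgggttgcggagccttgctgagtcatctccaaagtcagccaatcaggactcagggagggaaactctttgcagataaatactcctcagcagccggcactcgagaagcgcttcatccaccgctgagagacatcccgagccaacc

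The interferon response element core matched 2 times in Gzma and 1 time each in Cxcl9 and Cxcl10, and 8.56% of all 32851 mouse windows held it. The NF-kB core matched 1 time in Cxcl10 and in 1.25% of all windows. The RUNX site matched 2 times in Gzmb and 1 time each in Gzma, Cxcl9 and Nkg7, against 16.8% of all windows. The interferon gamma activated site matched 1 time each in Gzmb and Nkg7 (8.30% of all windows) and the T-box element 1 time in Nkg7 (3.98%). No base lay in more than 1 match in these windows. None of the 5 motifs was found in the windows of Cd3e, Cd3g and Cd8a. A match is a stretch of letters and not a binding site shown by experiment.

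**Figure D1:**
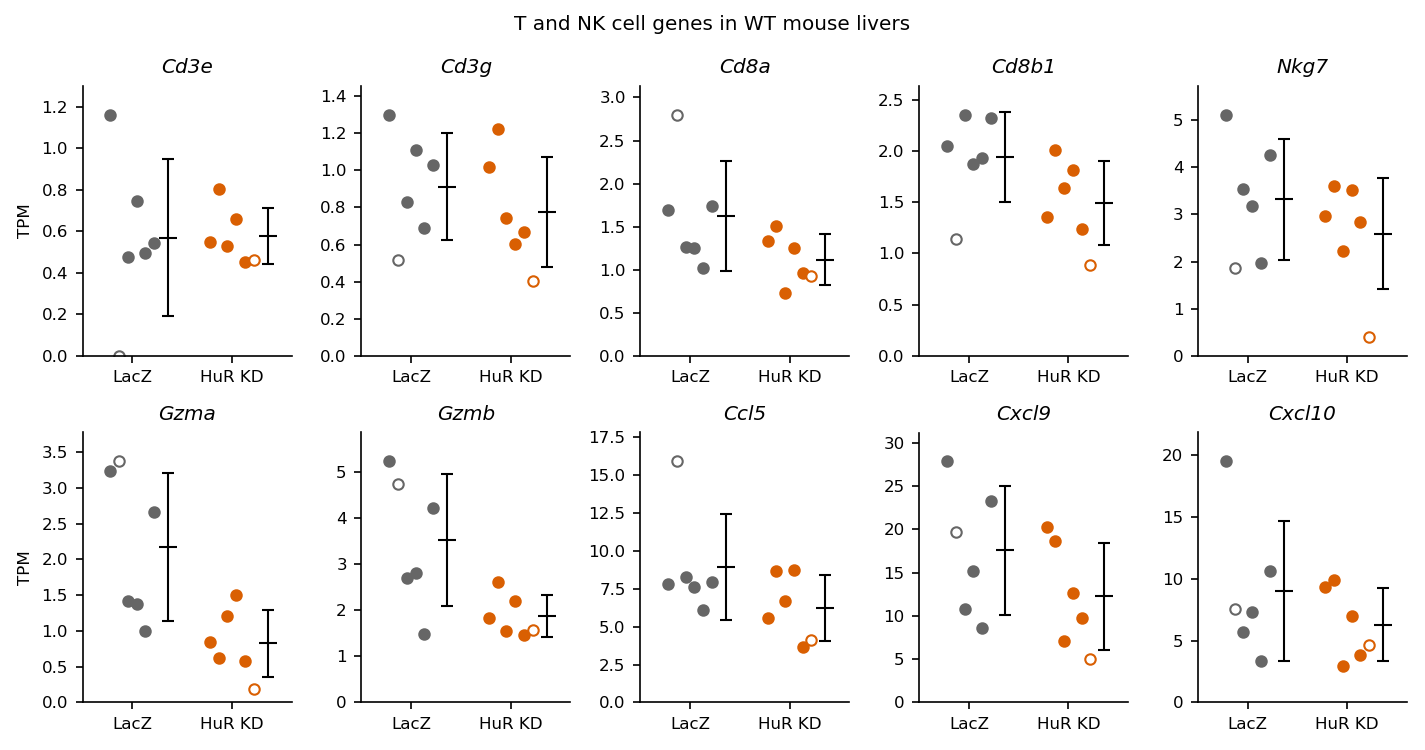
TPM of the 10 genes in each WT liver (LacZ grey, HuR KD orange, 6 livers each), with the group mean ± SD as a black bar beside the points. Open circles are the 2 shallowest libraries, LacZ replicate 2 and HuR KD replicate 6. The groups overlapped for each of the 10 genes, and the HuR KD livers sat lowest relative to the LacZ livers for Gzma and Gzmb.

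HuR KD livers held less granzyme mRNA at the unadjusted threshold only, and the other 8 genes did not pass it. Gzma was at 37.9% and Gzmb at 53.1% of the LacZ mean, with the 2 shallowest libraries included. Without HuR KD replicate 6 and LacZ replicate 2, mean Gzma was 0.952 TPM in HuR KD and 1.94 TPM in LacZ livers. Mean Gzmb was then 1.93 TPM in HuR KD and 3.28 TPM in LacZ livers. Of the 10 genes, 8 averaged 1 TPM or more across the 12 WT livers and entered the main fit. At an unadjusted p under 0.05, the threshold of the study, 2 of these 8 were called lower (Gzma and Gzmb) and 0 were called higher. Over all 15090 genes tested, 6.94% were called lower and 9.09% higher. At an adjusted p under 0.05, 0 of the 8 were called, against 0.888% of all genes. The median log2 fold change of the 8 genes was -0.42, beside 0.03 over all genes. The mean TPM was lower in the HuR KD livers for 9 of the 10 genes. The 2 groups overlapped for each of the 10, and the share of all WT genes that separate fully is not given here. Whole liver was sequenced, so fewer lymphocytes and less RNA per lymphocyte cannot be told apart.

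Gzma encodes granzyme A, a trypsin-like protease of cytotoxic granules. The gene (ENSMUSG00000023132.8) spans 113093825 to 113100981 of chromosome 13 (minus strand). In the LacZ livers it ranged from 1.00 to 3.37 TPM with a median of 2.04 (mean 2.18 ± 1.04, SD, n = 6). In the HuR KD livers it ranged from 0.187 to 1.50 TPM with a median of 0.733 (mean 0.825 ± 0.472, SD, n = 6). Of the 6 HuR KD livers, 4 lay below every LacZ liver and all 6 lay below the LacZ median. The log2 fold change was -0.77 (SE 0.24, 95% interval -1.29 to -0.26, limma unadjusted p = 0.00635, adjusted p = 0.134), and a two-sided exact permutation test over all groupings of the livers gave p = 0.0152. The highest LacZ value, 3.37 TPM, rested on 2 reads and the lowest HuR KD value, 0.187 TPM, on 1 read. Without these 2 libraries the fold change was -0.55 (limma unadjusted p = 0.0280, adjusted p = 0.158). Gzma stayed under the unadjusted threshold in all 22 alternative fits, with adjusted p from 0.0857 to 0.264.

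Gzmb encodes granzyme B, the granule protease that cleaves caspases and so starts apoptosis of the target cell. The gene (ENSMUSG00000015437.5) spans 56258838 to 56262260 of chromosome 14 (minus strand). It ranged from 1.49 to 5.22 TPM in the LacZ livers with a median of 3.51 (mean 3.52 ± 1.42, SD, n = 6). It ranged from 1.46 to 2.62 TPM in the HuR KD livers with a median of 1.70 (mean 1.87 ± 0.453, SD, n = 6). Of the 6 LacZ livers, 5 lay above every HuR KD liver, and LacZ replicate 5 (1.49 TPM) lay among the HuR KD livers. Gzmb had a log2 fold change of -0.60 (SE 0.21, 95% interval -1.05 to -0.16, limma unadjusted p = 0.0123, adjusted p = 0.175), and the exact permutation p was 0.0260. Without the 2 shallowest libraries the fold change was -0.49 (limma unadjusted p = 0.0495, adjusted p = 0.215). The unadjusted p was under 0.05 in all 22 alternative fits, with adjusted p from 0.0536 to 0.341.

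Nkg7 encodes a membrane protein of cytotoxic granules that is needed for their release. The gene (ENSMUSG00000004612.9) spans 43437073 to 43438249 of chromosome 7 (plus strand). Its TPM ranged from 1.86 to 5.11 in the LacZ livers (median 3.36) and from 0.411 to 3.60 in the HuR KD livers (median 2.90). The lowest of the 12 values, 0.411 TPM in HuR KD replicate 6, stood on 2 reads, and 4 of the 6 HuR KD livers lay below the LacZ median. Nkg7 had a log2 fold change of -0.31 (SE 0.29, 95% interval -0.93 to 0.32, limma unadjusted p = 0.306, adjusted p = 0.658). Without HuR KD replicate 6 the fold change was -0.057 (limma unadjusted p = 0.778), and it was -0.17 without both shallow libraries and -0.20 without LacZ replicate 1. It did not pass the test in any of its 22 alternative fits. Nkg7 is thus a granule gene with no called difference beside the 2 granzymes, but whether its change differs from theirs was not tested.

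The T cell receptor and co-receptor genes were the lowest of the set by median level in the LacZ livers. None of them passed the unadjusted threshold in the fit given first for it below. Cd8a passed it in 1 and Cd8b1 in 5 of 22 alternative fits. Cd3e (ENSMUSG00000032093.7, chromosome 9 from 44998740 to 45009627) and Cd3g (ENSMUSG00000002033.14, chromosome 9 from 44969572 to 44980431) lie 18.309 kb apart on the minus strand and encode the CD3 epsilon and gamma chains. Both had a mean TPM under 1 and were taken from the fit of all 31265 genes with a value above 0. Cd3e ranged from 0 to 1.16 TPM in the LacZ livers (median 0.519) and from 0.451 to 0.806 TPM in the HuR KD livers (median 0.540). The 0 came from LacZ replicate 2, where 0 reads allow a level of up to 1.25 TPM if 3 reads are taken as the limit for a count of 0. The log2 fold change of Cd3e was 0.04 (SE 0.15, limma adjusted p = 0.942), and it was -0.08 without that library. Cd3g ranged from 0.519 to 1.30 TPM in the LacZ livers (median 0.929) and from 0.402 to 1.22 TPM in the HuR KD livers (median 0.705). Its log2 fold change was -0.11 (SE 0.13, limma adjusted p = 0.782), and the ranges of the groups overlapped over most of their width. With single livers left out it ranged from -0.18 (without HuR KD replicate 2) to -0.045 (without HuR KD replicate 6).

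Cd8a and Cd8b1 encode the alpha and beta chains of CD8 and lie 35.933 kb apart on the plus strand of chromosome 6. Cd8a (ENSMUSG00000053977.13, from 71373427 to 71379173) ranged from 1.02 to 2.8 TPM in the LacZ livers (median 1.48) and from 0.725 to 1.51 TPM in the HuR KD livers (median 1.11). Its highest value, 2.8 TPM, was from LacZ replicate 2 and stood on 6 reads (95% exact Poisson interval 1.03 to 6.09 TPM). The log2 fold change was -0.29 (SE 0.16, limma unadjusted p = 0.0919, adjusted p = 0.411, exact permutation p = 0.0801) and it was -0.18 without LacZ replicate 2, -0.15 without the 2 shallowest libraries and -0.36 (limma unadjusted p = 0.0456) without LacZ replicate 5. Cd8b1 (ENSMUSG00000053044.8, from 71322788 to 71337494) ranged from 1.14 to 2.35 TPM in the LacZ livers (median 1.99) and from 0.887 to 2.01 TPM in the HuR KD livers (median 1.50). The lowest LacZ value of Cd8b1 stood on 1 read, from LacZ replicate 2, and without this library 5 of the 6 HuR KD livers lay below every LacZ liver. The log2 fold change of Cd8b1 was -0.24 (SE 0.14, limma unadjusted p = 0.115, adjusted p = 0.449). It was -0.33 (limma unadjusted p = 0.0170, adjusted p = 0.176) without LacZ replicate 2 and -0.25 (limma unadjusted p = 0.0236, adjusted p = 0.146) without both shallow libraries. With all 12 livers it also passed the unadjusted threshold with quantile normalization (-0.34), array weights (-0.27) and voom on the recovered reads (-0.44). Array weights gave LacZ replicate 2 the lowest weight of the 12 libraries (0.182), so that fit is not separate from leaving this library out. What moves the call was not tested.

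**Figure D2:**
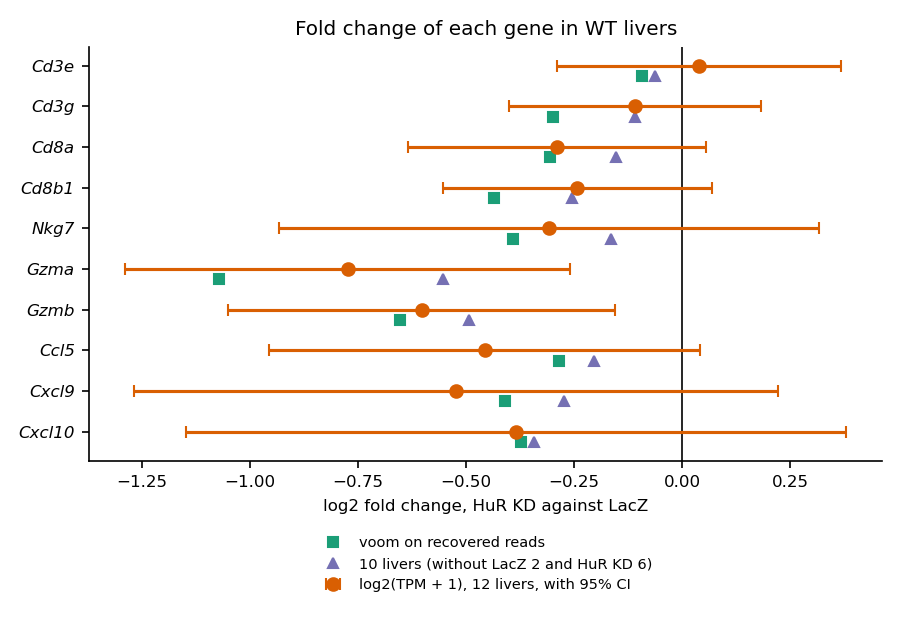
Log2 fold change (HuR KD against LacZ, WT livers) of each gene from limma on log2(TPM + 1) over 12 livers with its 95% confidence interval (circles), from voom on the recovered reads (squares), and over 10 livers without LacZ replicate 2 and HuR KD replicate 6 (triangles). The intervals of Gzma and Gzmb exclude 0, those of the other 8 genes include it, and Cd3e changes side between the fits.

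The chemokine genes were the most abundant of the set, and their mean levels in HuR KD livers were about 70% of the LacZ mean without passing the test. For Ccl5 this share depended on LacZ replicate 2. The LacZ mean of Ccl5 was 8.94 TPM with that library and 7.55 TPM without it, beside 6.24 TPM in the HuR KD livers. Ccl5 (ENSMUSG00000035042.2, chromosome 11, 83525778 to 83530518, minus strand) ranged from 6.08 to 15.9 TPM in the LacZ livers (median 7.89) and from 3.66 to 8.76 TPM in the HuR KD livers (median 6.12). The 15.9 TPM was from LacZ replicate 2 and stood on 9 reads (95% exact Poisson interval 7.27 to 30.2 TPM), and the other 5 LacZ livers lay between 6.08 and 8.28 TPM. Ccl5 had a log2 fold change of -0.46 (SE 0.23, limma unadjusted p = 0.0689, adjusted p = 0.362), and -0.29 without LacZ replicate 2 and -0.20 (limma unadjusted p = 0.298) without the 2 shallowest libraries. It passed the unadjusted threshold without HuR KD replicate 2 (-0.55), HuR KD replicate 4 (-0.56) or LacZ replicate 5 (-0.54). Cxcl9 (ENSMUSG00000029417.9, from 92321347 to 92328079) and Cxcl10 (ENSMUSG00000034855.13, from 92346638 to 92348889) lie 18.559 kb apart on the minus strand of chromosome 5. Cxcl9 ranged from 8.54 to 27.8 TPM in the LacZ livers (median 17.4) and from 5.04 to 20.2 TPM in the HuR KD livers (median 11.2). Its log2 fold change was -0.52 (SE 0.34, limma unadjusted p = 0.153, adjusted p = 0.508). It was -0.32 without HuR KD replicate 6, -0.27 without both shallow libraries and -0.19 with array weights. Cxcl10 ranged from 3.36 to 19.5 TPM in the LacZ livers (median 7.40) and from 2.94 to 9.91 TPM in the HuR KD livers (median 5.82). The log2 fold change of Cxcl10 was -0.39 (SE 0.35, 95% interval -1.15 to 0.38, limma unadjusted p = 0.295, adjusted p = 0.650), in a LacZ group that spans from 3.36 to 19.5 TPM. With single livers left out it ranged from -0.59 (without LacZ replicate 5) to -0.14 (without LacZ replicate 1), and it was -0.23 without HuR KD replicate 3.

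In the LacZ livers the order of median TPM, which is a level per transcript length, ran from Cxcl9 (17.4) through Ccl5 (7.89), Cxcl10 (7.40), Gzmb (3.51), Nkg7 (3.36), Gzma (2.04), Cd8b1 (1.99), Cd8a (1.48) and Cd3g (0.929) to Cd3e (0.519). The ranges of every pair of neighbours in this order overlapped. Their levels are far below the hepatocyte marker genes, whose summed TPM was 88502 to 101810 in the LacZ livers.

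The same livers tended to be high or low for several genes. LacZ replicate 1 had the highest value of the 12 livers for 6 of the 10 genes, and its rank averaged over the 10 genes, with 1 as the highest, was 2. LacZ replicate 6 followed with a mean rank of 3.1. LacZ replicate 2 was highest for 3 genes and lowest for 1. At the other end, HuR KD replicate 6 was lowest for 5 genes (mean rank 11), followed by HuR KD replicate 5 with a mean rank of 10.2. The groups were mixed between these ends, since HuR KD replicate 2 (mean rank 4.2) ranked above LacZ replicates 2, 3, 4 and 5 (5.4 to 8.9).

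To see which genes varied together within a group, group means were removed and 45 pairs of genes were correlated over the 12 livers. Of the 45 pairs, 41 had a positive Pearson's r and the median r was 0.50. After adjustment over the 45 pairs, 9 pairs passed 0.05, each with a positive r. Cxcl9 and Cxcl10 had the highest value (r = 0.88, permutation p = 0.000370, adjusted p = 0.0166, rho = 0.90, permutation p = 0.000590, adjusted p = 0.0133), and r was 0.92 without the 2 livers farthest from the median of Cxcl9. Gzmb varied with Cxcl10 (r = 0.83, permutation p = 0.00161, adjusted p = 0.0181, rho = 0.85, permutation p = 0.000310, adjusted p = 0.0133), and r was 0.67 without the 2 farthest livers. Cd8a varied with Gzmb (r = 0.80, permutation p = 0.00701, adjusted p = 0.0451, rho = 0.78, permutation p = 0.00514, adjusted p = 0.0457), with r = 0.77 without the 2 farthest livers. Cd3e varied with Cd3g (r = 0.75, permutation p = 0.00127, adjusted p = 0.0181, rho = 0.76, permutation p = 0.00798, adjusted p = 0.0457), with r = 0.69 without them. The other 5 pairs were Cd3g with Nkg7, Cd8a with Cxcl9, Cd8b1 with Nkg7, Nkg7 with Cxcl9 and Gzmb with Cxcl9, with r from 0.71 to 0.78. Of the 9 pairs, 8 kept an r above 0.5 without the 2 farthest livers, and Cd8b1 with Nkg7 (r = 0.37) did not. All genes of a liver share its library and depth, and leaving out LacZ replicate 2 raised the number of pairs past the threshold to 18 and the median r to 0.63.

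**Figure D3:**
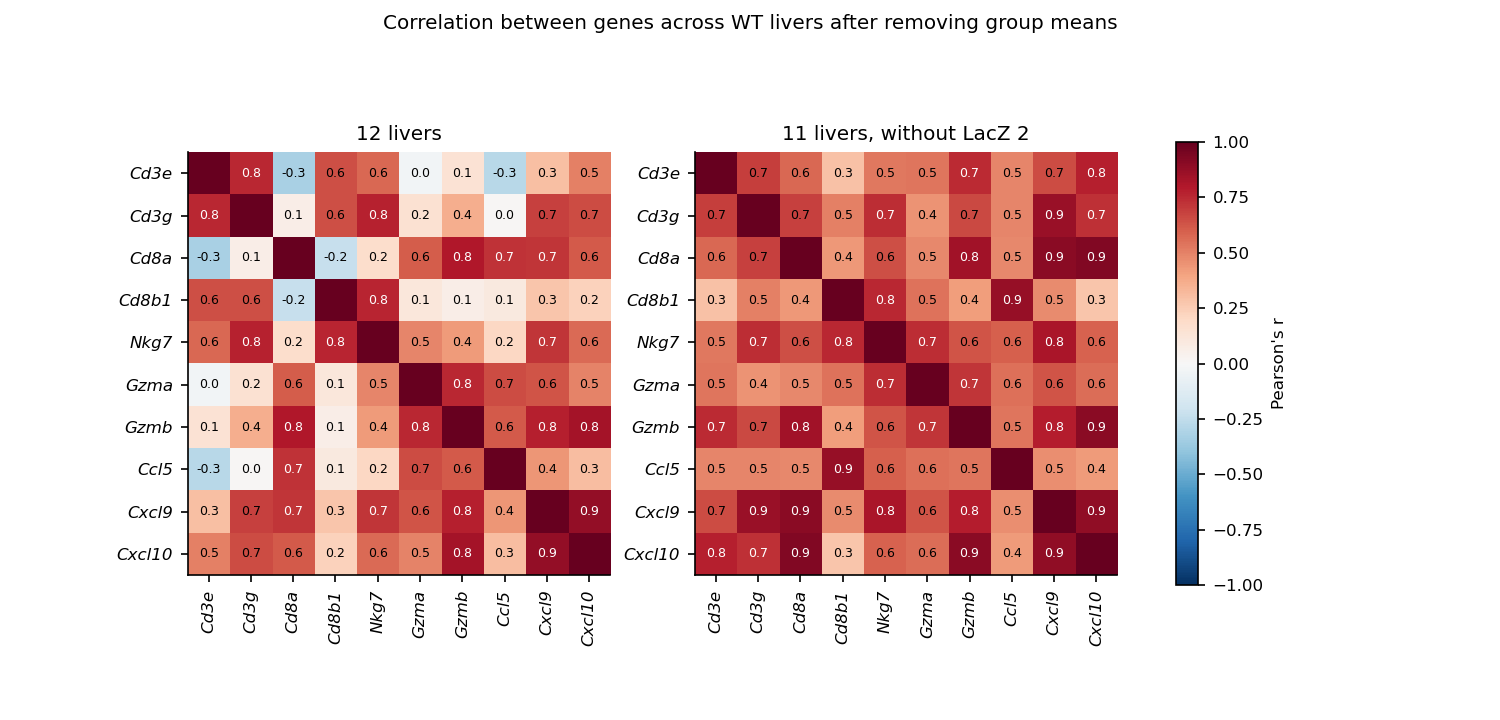
Pearson's r between each pair of the 10 genes across WT livers after removing group means of log2(TPM + 1), over 12 livers (left) and over 11 livers without LacZ replicate 2 (right). With that library of 1401822 reads included, 41 of 45 pairs were positive, and without it all 45 were.

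Among genes averaging 1 TPM or more, those most like the mean of Cd3e, Cd3g, Cd8a, Cd8b1 and Nkg7 over the 12 livers were Itga4 (r = 0.96), which encodes an integrin chain of leukocytes, Tfdp2 (r = 0.96), Srpk2 (r = 0.96), Lpcat2 (r = 0.96) and Zfp944 (r = 0.96). Those most like the mean of Cxcl9 and Cxcl10 were Irgm2 (r = 0.99) and Igtp (r = 0.98), which encode interferon-inducible GTPases, Parp14 (r = 0.98) and BC023105 (r = 0.98). These values are a description, since each was picked as the highest of all genes.

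Other genes of the same pathways were read from lists. Of 20 further T cell receptor and signalling genes, 10 could be tested, 1 was called lower and 0 higher (6.94% lower and 9.09% higher over all genes), and the median log2 fold change was -0.21. The called gene was Lag3, an inhibitory receptor of activated T cells, whose log2 fold change was -0.36 (limma unadjusted p = 0.029, adjusted p = 0.249). Trbc2 (-0.33, limma unadjusted p = 0.0568) and Trac (-0.34, limma unadjusted p = 0.137), the constant regions of the T cell receptor chains, did not pass. The list had 0 calls when HuR KD replicate 4 or 6 or LacZ replicate 1 or 3 was left out. Of 26 cytotoxic effector and NK receptor genes only 4 reached a mean TPM of 1, with 1 called lower and 0 higher, beside 6.94% and 9.09% of all genes, and a median of -0.24. The called gene was Klrk1, the activating receptor NKG2D of NK and CD8 T cells, from a mean of 1.80 ± 0.413 TPM in LacZ livers to 1.11 ± 0.296 TPM in HuR KD livers (SD, n = 6; log2 fold change -0.41, limma unadjusted p = 0.0110, adjusted p = 0.169). Klrd1 (-0.33, limma unadjusted p = 0.128) and Il2rb (-0.15, limma unadjusted p = 0.187), further receptors of NK cells, did not pass.

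Of 11 chemokine receptor genes 7 were tested, with 1 called lower and 0 higher, beside 6.94% and 9.09% of all genes, and a median log2 fold change of -0.18. The called gene was Cx3cr1 (-0.32, limma unadjusted p = 0.0371, adjusted p = 0.275), the receptor for fractalkine on monocytes and cytotoxic lymphocytes. Cxcr3, the receptor of CXCL9 and CXCL10, did not pass (-0.27, limma unadjusted p = 0.153). The receptor list had 0 calls without HuR KD replicate 1, 3 or 5 or LacZ replicate 2 or 4. Of 19 further chemokine ligand genes 11 averaged 1 TPM or more and were tested, with 0 called lower and 1 higher and a median of -0.08. Cx3cl1, which encodes fractalkine, was under this filter and was named after its values were seen. It ranged from 0.179 to 0.373 TPM in the HuR KD livers and from 0.378 to 0.863 TPM in the LacZ livers. A share of 1 in 11 called higher is near the 9.09% of all genes. The gene called higher was Cxcl12 (0.26, limma unadjusted p = 0.0276, adjusted p = 0.245), a chemokine made by stromal cells. Cxcl11 (-0.18, limma unadjusted p = 0.202), the third ligand of CXCR3, and Ccl6 (-0.26, limma unadjusted p = 0.218) did not pass. The ligand list had 0 calls without HuR KD replicate 1, 2 or 4 or LacZ replicate 4 or 5.

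Interferon gamma, made by T and NK cells, acts on most liver cells, and its response genes had the most calls of the 5 pathway lists. Of 25 interferon gamma response genes 23 were tested, and 14 were called lower and 1 higher, beside 6.94% and 9.09% of all genes (median log2 fold change -0.39). Iigp1, an interferon-inducible GTPase, ranged from 194.3 to 414 TPM in the LacZ livers (median 259). In the HuR KD livers it ranged from 98.3 to 193.6 TPM (median 161). All 6 HuR KD livers thus lay below all 6 LacZ livers, by a narrow margin. The share of all WT genes that separate fully is not given here. The log2 fold change of Iigp1 was -0.86 (SE 0.19, limma unadjusted p = 0.000676, adjusted p = 0.0550). The guanylate-binding protein genes Gbp7 (-1.05, limma adjusted p = 0.0580) and Gbp3 (-1.04, limma adjusted p = 0.108) were also called lower. The gene called higher was Jak1 (0.15, limma unadjusted p = 0.0191, adjusted p = 0.210), a kinase of the interferon receptors that was named after its value was seen. None of these 5 lists held a gene at an adjusted p under 0.05. Without the 2 shallowest libraries, the interferon gamma list had 10 genes called lower and 1 higher. Of all genes, 7.79% were called lower and 15.4% higher in that fit. There, 2 of the 23 list genes had an adjusted p under 0.05, as did 790 of all 15090 genes tested.

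**Figure D4:**
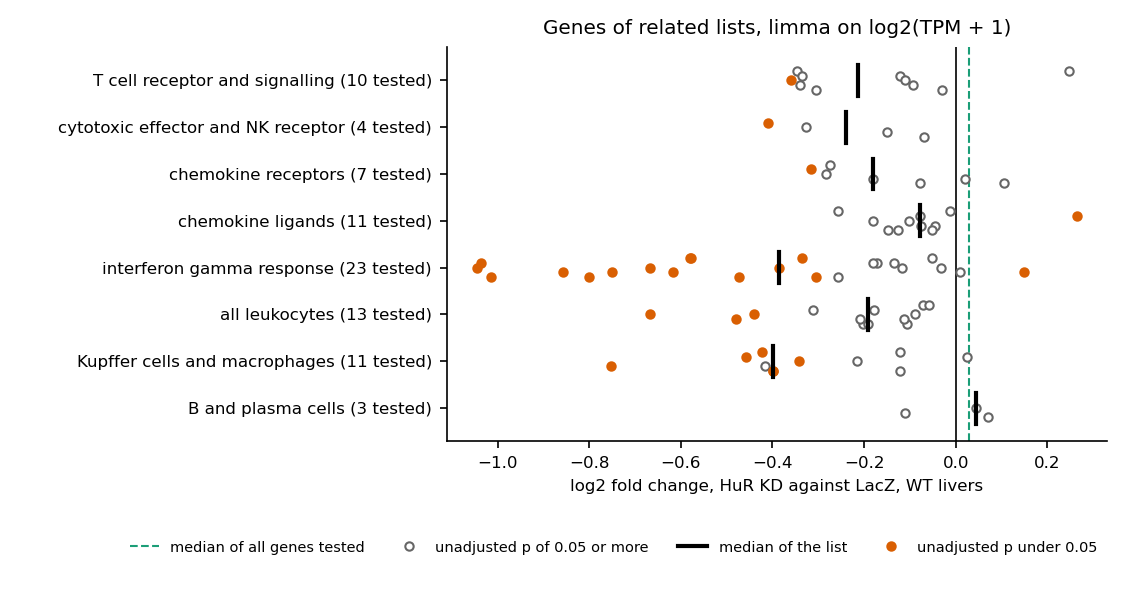
Log2 fold change (HuR KD against LacZ, WT livers, limma on log2(TPM + 1)) of the tested genes in 5 pathway lists and 3 cell type marker lists. Filled circles have an unadjusted p under 0.05, black bars are list medians and the dashed line is the median of all 15090 genes tested (0.03). Called genes lie mostly to the left in the interferon gamma response and the Kupffer cell lists.

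Markers of other cell types were read beside these results, where 6.94% of all genes were called lower and 9.09% higher. Of 13 genes shared by all leukocytes, 3 were called lower and 0 higher, and their summed TPM ranged from 82.4 to 128 in the HuR KD livers and from 105 to 156 in the LacZ livers. Ptprc, which encodes CD45, had a log2 fold change of -0.21 (limma unadjusted p = 0.183), Cd52 of -0.67 (limma unadjusted p = 0.0173) and Cd53 of -0.31 (limma unadjusted p = 0.0521). Of 12 Kupffer cell and macrophage genes 11 were tested, with 6 called lower and 0 higher, and the sums ranged from 569 to 1022 TPM in the HuR KD livers and from 775 to 1071 TPM in the LacZ livers. Clec4f, a lectin found on Kupffer cells, had a log2 fold change of -0.75 (limma unadjusted p = 0.000893, adjusted p = 0.0613), Adgre1 of -0.40 (limma unadjusted p = 0.0308) and Vsig4 of -0.12 (limma unadjusted p = 0.483). Stellate cell genes had 3 of 8 called lower and 0 higher. B and plasma cell (3 tested), neutrophil (3), dendritic cell (5) and cycling cell (6) genes had 0 calls, and in each of the liver endothelium (8) and blood (7) lists 0 were called lower and 1 higher. The 10 hepatocyte genes had 1 call in each direction. The summed blood genes ranged from 194 to 713 TPM in the HuR KD livers and from 282 to 420 TPM in the LacZ livers. None of the marker genes was at 0 in all 12 livers. The part of the Kupffer cell and general leukocyte markers in the granzyme result was not tested.

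The 3′ UTRs of the set were searched for AUUUA, the core of AU-rich elements, in the coding transcript with the longest coding sequence of GENCODE M21. The longest UTRs held the most matches, with 6 in Cd8a (2258 bases) and 3 in Cxcl9 (2452 bases), followed by 2 in Cxcl10 (729 bases) and 2 in Cd3e (791 bases). Gzma (65 bases), Gzmb (581 bases), Nkg7, Ccl5, Cd3g and Cd8b1 held 0. Among UTRs of similar length (up to 20% shorter or 25% longer), at least as many matches were found in 31.6% for Cd8a, 70.4% for Cxcl9, 34.4% for Cxcl10 and 38.2% for Cd3e. A match does not show binding by HuR.

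In the humanized livers, 7 of the 10 human counterparts were listed at 0 in all 8 libraries, and CD3G was above 0 in 1 library. This left the 2 CXC chemokines, which hepatocytes can make themselves. CXCL10 was at 72.4, 121, 113 and 89.2 TPM in the 4 LacZ livers (mean 98.9 ± 22.2, SD, n = 4). In the 4 HuR KD livers it was at 42.6, 52.0, 60.1 and 24.5 TPM (mean 44.8 ± 15.3, SD, n = 4), which is 45.3% of the LacZ mean. The 2 groups did not overlap, as for 5.03% of the 12738 human genes averaging 1 TPM or more, in the lower direction. The difference in mean log2(TPM + 1) was -1.17, with an exact permutation p of 0.0286, the smallest that 70 groupings can give. Human ELAVL1 mRNA and the depth of these 8 libraries are not given here. CXCL9 was at 2.51, 6.63, 0.881 and 2.22 TPM in the LacZ livers and at 0.929, 0, 2.11 and 1.14 TPM in the HuR KD livers, and the groups overlapped (difference -0.91, exact permutation p = 0.171). That difference ranged from -1.22 (without LacZ replicate 3) to -0.55 (without LacZ replicate 2) with single livers left out, and was -0.61 without HuR KD replicate 2. The exact permutation p was 0.351 for mouse Cxcl10 and 0.203 for mouse Cxcl9, and whether the changes differ between the species was not tested.

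**Figure D5:**
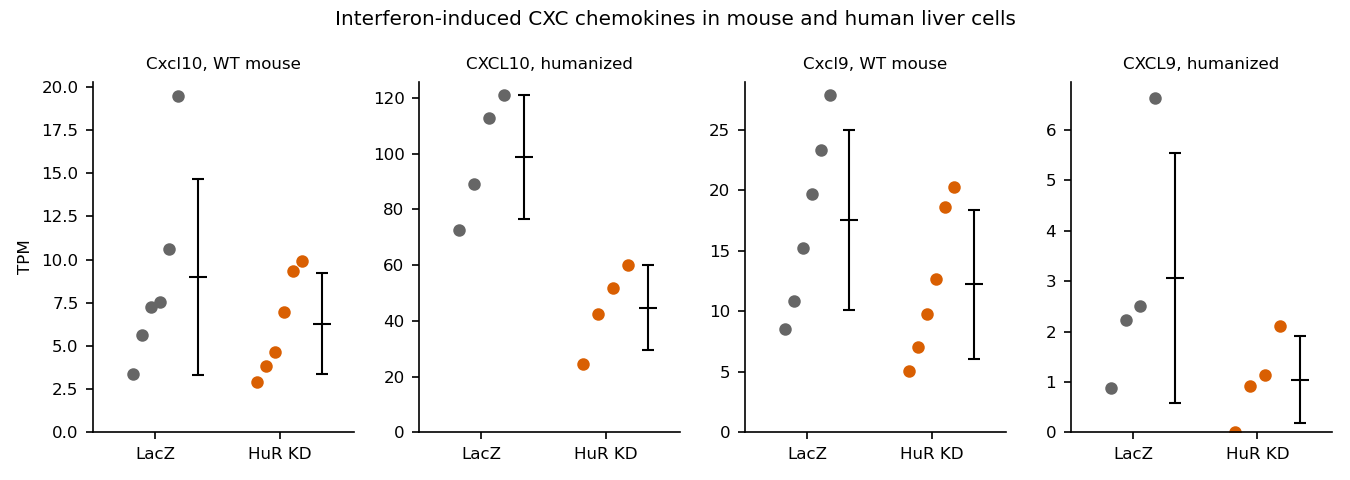
TPM of Cxcl10 and Cxcl9 in WT mouse livers (6 per group) and of CXCL10 and CXCL9 in humanized livers (4 per group), points sorted by value within a group, with the mean ± SD in black. The groups separate fully for human CXCL10 and overlap for the other 3, and each panel has its own TPM axis.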

How the data were processed

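The 12 WT and 8 humanized livers were grouped by their GEO titles. Total RNA reads were trimmed by the authors with cutadapt (Trim Galore in the submitters' notes) and aligned with HISAT2, against GENCODE M23 (mm10) for WT livers and against joined human and mouse genomes for humanized ones. Gene counts from featureCounts were turned into the TPM the authors deposited, by a formula not given in the sources used here. Every library has the same TPM total, and 0 columns of other samples were left aside.

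Genes averaging 1 TPM or more were compared as log2(TPM + 1) with limma 3.58.1 (R 4.3.3, lmFit, eBayes with trend), which was tested on simulated data. A call is an unadjusted p under 0.05. Exact permutation tests were two-sided, and correlation p-values came from 100000 resamples (seed 5). Replicates are numbered as separate mice. Whole reads were recovered from TPM and GENCODE M21 exon lengths on GRCm38, with 100% of values under 50 reads whole within 0.02. The 748 genes without a length were left out of the reads. DESeq2, used by the authors, was not run, since the deposited values are TPM, and voom served as the test on recovered reads.

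The genes, lists and tests were chosen with earlier results of these data known. The named genes were the 10 genes, Elavl1, the 3 genes of smallest p in each of 5 pathway lists, the first 3 genes of a marker list and the 5 most alike genes, except that 2 genes this rule gives are left out of the text. Jak1 and Cx3cl1 were named outside this rule, after their values were seen. RefSeq promoter windows matched 8 of the 10 genes. Alternatives were log2(TPM + 0.1), no filter or a mean of 0.2 TPM, median-of-ratios factors, quantile normalization, no trend, array weights, voom on the reads, a block for the replicate number, single livers left out and, added after seeing the data, 2 shallow libraries left out. Python 3.11.15, numpy 2.4.6, pandas 2.3.3, scipy 1.17.1 and matplotlib 3.10.9 were used.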

Additional observations from a re-analysis of the deposited data

Results flagged for a closer look

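In all, 24 sets of values, each of 1 gene in 1 group of livers, were tested for a sample far from the others. Of these, 1 was picked out, and chance picks out about 1 in 20 sets. The set picked out was Ccl5 in the LacZ livers, where LacZ replicate 2 was at 15.9 TPM and the other 5 livers at 6.08 to 8.28 TPM. The gap was 0.776 of the whole range of the group, above Dixon's critical value of 0.625. The value stood on 9 reads in a library of 1401822 reads.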

How the results depend on the processing

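The direction held in every alternative run for 9 of the 10 genes, and no gene reached an adjusted p under 0.05 in any of them. Cd3e turned from 0.04 to -0.019 with array weights, -0.093 with voom on the recovered reads and -0.063 without the 2 shallowest libraries, a setting chosen after seeing the data, and ranged from -0.084 to 0.14 with each liver left out in turn. Gzma ranged from -0.89 to -0.66 and Gzmb from -0.76 to -0.50 over these single-liver fits. The count of called genes, 2, became 0 at an adjusted p under 0.05 and ranged from 2 to 4 with each liver left out. It reached 4 without LacZ replicate 5, where Cd8a (-0.36) and Ccl5 (-0.54) passed. Cd8b1 also passed with quantile normalization (-0.34), array weights (-0.27) and voom (-0.44), and Ccl5 without HuR KD replicate 2 (-0.55) or HuR KD replicate 4 (-0.56). With the replicate number as a block, Ccl5 passed (-0.46, limma unadjusted p = 0.0110) and the T cell receptor list had 3 called genes, while the genes at an adjusted p under 0.05 fell from 134 to 17. Deviations of same-numbered livers correlated at -0.14 to 0.21, over 0.1 for 2 of 6 numbers. Called genes in the T cell receptor list, 1 at first, numbered 2 with median-of-ratios factors and with quantile normalization, 0 without the 2 shallowest libraries and 0 to 2 with each liver left out. The cytotoxic list had 2 with no filter and with a mean TPM of at least 0.2. The chemokine ligand list had 2 in each of these settings and 0 to 1 with each liver left out. The chemokine receptor list had 2 with median-of-ratios factors, quantile normalization and voom, 0 with array weights and without the 2 shallowest libraries, and 0 to 2 with each liver left out. The interferon gamma list ranged from 10 to 16 over these single-liver fits. The number of correlated pairs, 9, became 18 without LacZ replicate 2. Over all genes, 134 had an adjusted p under 0.05, against 1717 with array weights, 504 with voom, 790 without the 2 shallowest libraries, 228 with median-of-ratios factors, 272 with quantile normalization, 54 without the trend and 30 to 372 with each liver left out. The cause of these differences was not tested.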
